A study of Rattus norvegicus with 12 samples.

Results

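The genes described here encode the enzymes that make nucleotides, serine and one-carbon units. They were taken by name from a list of 33 genes in the count table of the series, which holds 28727 named entries. Of these 33, 32 had an entry and 31 had enough counts to be tested, among 14669 genes tested in all. The expression of Pfas, an enzyme of purine synthesis, was not analysed here, and Phgdh, the first enzyme of serine synthesis, had too few counts to be tested.

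RNA was sequenced from INS-1 832/13 cells. This line derives from a rat β-cell tumour and is used as a model of the insulin-secreting β-cell. The cells carried an adenovirus for GFP, the control, or an adenovirus for ChREBPβ, and were kept in 2 or 11 mM glucose over 48 h. This gave 4 groups of 3 libraries, lettered a to c, named GFP 2 mM, GFP 11 mM, ChREBPβ 2 mM and ChREBPβ 11 mM. ChREBPβ is the short isoform of the carbohydrate response element-binding protein, a transcription factor that responds to glucose. The virus carried a mouse ChREBPβ joined to mCherry, per the study's methods, so that all groups are of 1 line, all carry an adenovirus, and ChREBPβ was present through overexpression.

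Nucleotides are made from small precursors or salvaged from bases and nucleosides. The pyrimidine route builds the ring and then joins it to phosphoribosyl pyrophosphate (PRPP), while the purine route builds the ring on PRPP and ends in AMP and GMP. Serine, made from a glycolytic intermediate by Phgdh, Psat1 and Psph, hands a carbon to folate through the Shmt enzymes, and the Mthfd enzymes turn this carbon into the formyl groups of the purine ring or keep it for the methyl group of thymidylate. Ribonucleotide reductase, of Rrm1 and Rrm2, makes the deoxynucleotides for DNA, and these routes are known to be induced in dividing cells.

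The study describes its averages over these libraries as coming from independent experiments, while the labels do not say what the letters a to c mark. The p-values set the differences between groups against the spread between these libraries, whatever the letters mark. Library totals ranged from 25754488 to 60531215 counts. The ChREBPβ 2 mM library a, with 28595982 counts, was the only ChREBPβ library in the range of the GFP 2 mM libraries, which held 25754488 to 32938546. Mlxipl, the rat gene for ChREBP, was at 240.4, 252 and 277 CPM (counts scaled to a common library size, with edgeR's TMM factors) with GFP at 2 mM and 203, 212 and 199 in ChREBPβ 2 mM, a log2 fold change of -0.33. At 11 mM it was 202, 212 and 208 CPM with GFP and 201, 181 and 183 with ChREBPβ, a log2 fold change of -0.14. The virus carries the mouse sequence, and whether reads from it count toward the rat gene was not tested, so this count does not check the labels, from which the groups take their names. All 8 β-cell markers were tested and all 8 fell with ChREBPβ at both glucose levels. Their summed level was 23474 to 26346 CPM with GFP at 2 mM, 18907 to 20749 with GFP at 11 mM, 12220 to 12580 with ChREBPβ at 2 mM and 11442 to 11985 with ChREBPβ at 11 mM. Of the 6 fibroblast markers, 4 were under 1 CPM in every library, and the summed level, nearly all from Thy1, was 182 to 188, 148 to 154, 83.1 to 86.5 and 80.8 to 82.5 CPM in the same order. Macrophage markers summed to at most 1.40 CPM and endothelial markers to at most 1.86 CPM. In RNA from whole cultures, fewer cells of a kind cannot be told apart from less RNA per cell.

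The sequence before the gene start is printed for the 3 members with the largest increases, Psph, Psat1 and Cad, and for Shmt1, a member with a pair of E-boxes. These are the 250 bases that precede the RefSeq gene start on the GRCr8 assembly, at chr12:32526841-32527090 on the plus strand for Psph, chr1:222645409-222645658 on the minus strand for Psat1, chr6:31035037-31035286 on the minus strand for Cad and chr10:45990342-45990591 on the minus strand for Shmt1. They are written 5′ to 3′, and capitals mark the E-box CACGTG.
Psph: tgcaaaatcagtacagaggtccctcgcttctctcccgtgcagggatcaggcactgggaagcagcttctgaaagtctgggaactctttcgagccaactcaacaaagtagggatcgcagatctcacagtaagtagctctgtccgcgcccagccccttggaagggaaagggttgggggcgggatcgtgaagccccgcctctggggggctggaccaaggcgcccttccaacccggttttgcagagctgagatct
Psat1: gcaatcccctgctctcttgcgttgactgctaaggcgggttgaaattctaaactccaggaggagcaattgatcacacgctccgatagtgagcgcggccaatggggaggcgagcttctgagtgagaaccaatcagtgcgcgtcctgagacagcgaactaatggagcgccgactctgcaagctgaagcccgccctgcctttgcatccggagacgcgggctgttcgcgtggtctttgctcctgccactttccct
Cad: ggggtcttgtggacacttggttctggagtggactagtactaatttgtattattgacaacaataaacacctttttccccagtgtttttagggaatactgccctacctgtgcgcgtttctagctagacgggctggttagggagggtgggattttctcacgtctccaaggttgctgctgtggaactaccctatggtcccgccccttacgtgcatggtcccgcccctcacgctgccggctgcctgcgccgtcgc
Shmt1: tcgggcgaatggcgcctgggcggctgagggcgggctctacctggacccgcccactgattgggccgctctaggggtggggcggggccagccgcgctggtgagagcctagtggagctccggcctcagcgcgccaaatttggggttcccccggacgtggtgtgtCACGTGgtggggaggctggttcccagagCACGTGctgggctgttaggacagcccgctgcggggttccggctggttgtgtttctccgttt

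E-boxes are the sites bound by the Myc family and, in spaced pairs, by ChREBP. Over windows of 300 bases, 250 before and 50 after the gene start, 29 of the 33 members had a RefSeq window. Dhodh, Umps, Mthfd1 and Rrm2 had none. On either strand, CACGTG was in the windows of 3 of these 29 members, Atic, Adss and Shmt1, against 6.42% of all 33469 windows and 8.86% of the 11439 windows of genes tested here. It was in none of the 12 windows of members that rose with ChREBPβ at 2 mM. Dhodh, Mthfd1 and Rrm2 rose as well but had no window to search. Whether 0 of 12 differs from the shares of all genes, here or for the sites below, was not tested. The carbohydrate response element, which itself holds E-box-like ends, was in 0 of 29 windows and in 0.0747% of all windows and 0.0962% of those of genes tested. TGATGNAA, a site of the C/EBP and ATF factors, was also in 0 of 29, against 3.98% of all windows and 1.91% of those of genes tested. E2F sites, searched as TTTGGCGC, TTTGCCGC, TTTCGCGC and TTTCCCGC, were in the windows of Ppat, Shmt1 and Tyms, against 2.14% of all windows and 3.81% of those of genes tested, and in 0 of the 12 windows of members that rose. Ppat and Paics start head to head, and their windows share 74 bases.

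The first comparison asked which of these genes differed between ChREBPβ and GFP at 2 mM glucose. ChREBPβ raised some of the enzymes of pyrimidine, purine, serine, one-carbon and deoxynucleotide synthesis and 1 nucleotide kinase, Nme1. The other members, apart from Impdh1, were not called higher or lower. Psph, which releases serine from phosphoserine, rose 10.0-fold, Cad, which carries the first steps of the pyrimidine ring, 2.28-fold, and Psat1, which makes phosphoserine, 2.08-fold. In all, 16 of the 31 members tested were called, with a Benjamini-Hochberg adjusted p under 0.05 over all genes in edgeR's quasi-likelihood test and a change of at least 1.2-fold, against 44.1% of all genes tested. Of these, 15 rose, where 21% of all genes did, and 1, Impdh1, fell, where 23.2% of all genes did. The median log2 fold change with ChREBPβ, called its effect from here on, was 0.26 over the members and -0.02 over all genes. The share of members called was thus near that of all genes, and the direction was mostly upward.

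At 11 mM glucose the same comparison gave fewer calls. Psph rose 7.26-fold, Cad 1.47-fold and Psat1 1.44-fold, and Rrm2, Mthfd1l and Nme1 rose 1.37, 1.32 and 1.25-fold. Impdh1 was again lower, at 0.752 of the GFP level. These 7 of 31 members compare with 33.4% of all genes, the 6 that rose with 14.3% and the 1 that fell with 19.1%. The members' median log2 fold change was 0.05, against -0.02 over all genes. Each of the 6 genes that rose at 11 mM also rose at 2 mM, and 9 members were called at 2 mM but not at 11 mM: Dhodh, Ctps1, Gart, Paics, Impdh2, Gmps, Shmt2, Mthfd1 and Rrm1. Of these, Gart, Paics, Impdh2, Mthfd1 and Rrm1 had an adjusted p under 0.05 at 11 mM too and missed only the 1.2-fold minimum, and the interaction was not called for Dhodh, Paics and Shmt2. The other 15 members were called at neither glucose level.

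**Figure D1:**
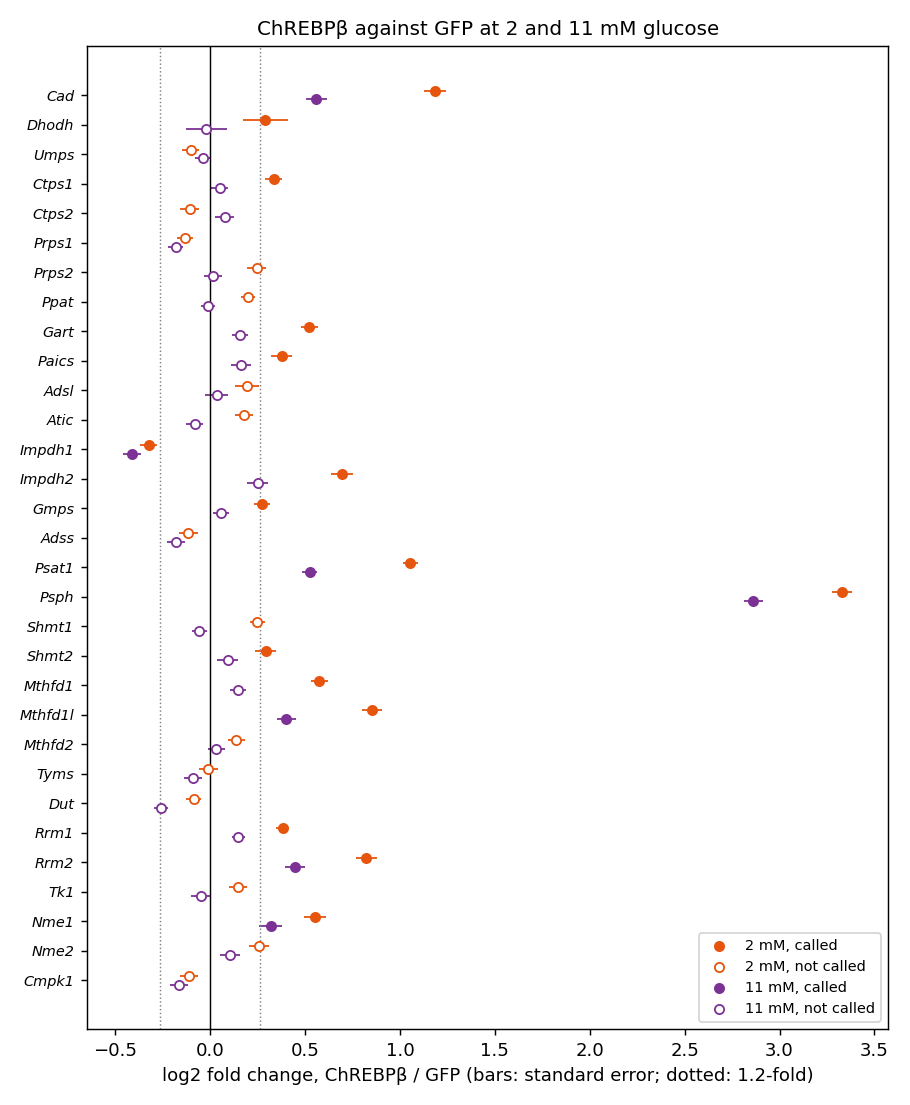
Log2 fold change of ChREBPβ over GFP (horizontal axis, bars are standard errors) for the 31 tested members at 2 mM (orange) and 11 mM glucose (purple); filled points were called. Psph stands far to the right at 3.33 and 2.86, and most orange points lie to the right of the purple point of the same gene.

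Glucose was then compared within cells carrying GFP. Raising glucose from 2 to 11 mM raised 15 of 31 members, where 20.2% of all genes were called and 10.2% rose. The log2 fold changes were 0.76 for Psat1, 0.73 for Cad, 0.63 for Mthfd1l, 0.61 for Rrm2, 0.60 for Dhodh, 0.51 for Mthfd1 and 0.49 for Psph. Impdh2, Gart, Ctps1, Shmt1, Shmt2, Gmps, Prps2 and Nme1 also rose, by log2 0.29 to 0.47. The members' median was 0.26, against -0.002 over all genes. Below 0 and at an unadjusted p under 0.05 there was only Ctps2, at -0.17 (adjusted p = 0.011), which did not reach 1.2-fold. Without GFP 11 mM b, 20 members were called higher, and the share of all genes called in that fit is not given here.

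In cells carrying ChREBPβ, the same step in glucose gave 0 called members with edgeR and 0 with DESeq2, where edgeR called 3.87% of all genes. At an unadjusted p under 0.05 there were 9 members, and the share of all genes at this threshold is not given here. Psat1, Mthfd1l and Rrm2 had an adjusted p under 0.05 but stayed under 1.2-fold, with log2 fold changes of 0.23, 0.17 and 0.24. The members' median was 0.06.

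**Figure D2:**
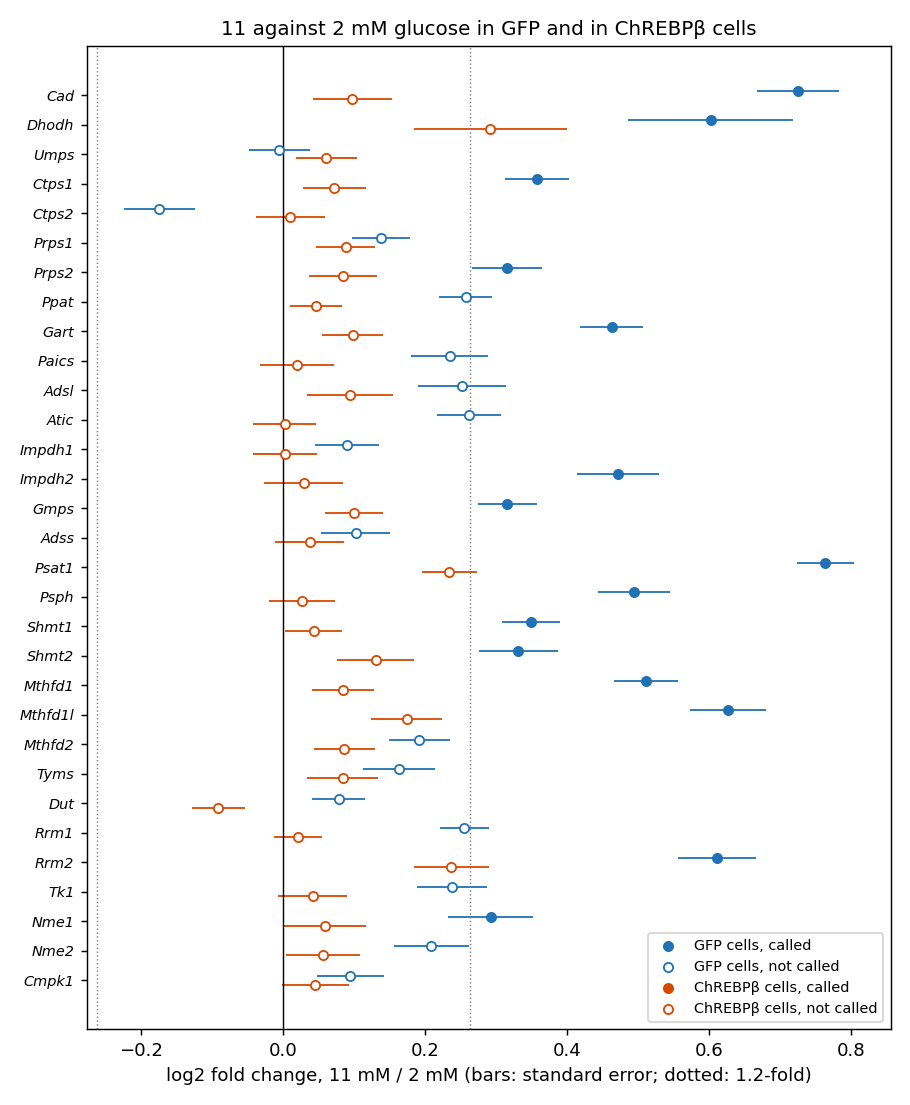
Log2 fold change of 11 over 2 mM glucose (horizontal axis, bars are standard errors) in cells with GFP (blue) and with ChREBPβ (orange); filled points were called. In GFP cells 15 of the 31 members are filled and lie to the right of the 1.2-fold line, and in ChREBPβ cells none is filled.

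The difference between the ChREBPβ effects at 11 and 2 mM, which is also the difference between the glucose effects with ChREBPβ and with GFP, was tested as the interaction. It was below 0 and past the threshold for 15 of 31 members, where 8.07% of all genes were called and 6.02% were called in this direction. DESeq2 called 16 members, and the share of all genes it called is not given here. An interaction above 0 at an unadjusted p under 0.05 was there only for Ctps2, with 0.18 (adjusted p = 0.125 in edgeR's test). The largest were those of Cad at -0.63 (SE 0.08, adjusted p = 3.44e-05), Psat1 at -0.53 (SE 0.06, adjusted p = 3.48e-06), Psph at -0.47 (SE 0.07, adjusted p = 0.00018) and Mthfd1l at -0.45 (SE 0.07, adjusted p = 0.000488). The median was -0.22 over the members and -0.006 over all genes. The calls of Prps2 at -0.23 and Gmps at -0.22 were lost most often, without any of 9 libraries for Prps2 (-0.20 to -0.24) and without GFP 2 mM b, GFP 11 mM c, ChREBPβ 2 mM a, ChREBPβ 2 mM b or ChREBPβ 11 mM b for Gmps (-0.20 to -0.21). Atic, at -0.26, was lost without ChREBPβ 2 mM c (-0.23). Without GFP 11 mM b 19 members were called, again with no share of all genes from that fit beside it. These comparisons share libraries: the GFP 2 mM libraries enter the ChREBPβ effect at 2 mM, the glucose effect in GFP cells and the interaction.

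**Figure D3:**
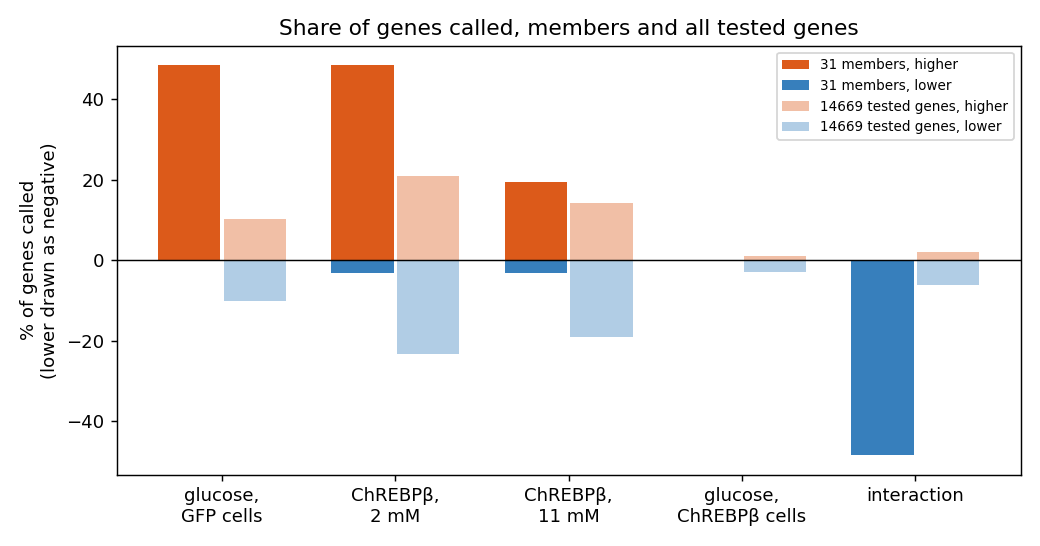
Percentage of genes called higher (orange, upward) or lower (blue, drawn as negative) in 5 comparisons, for the 31 tested members (dark) and all 14669 tested genes (pale). The members reach 48.4% higher with glucose in GFP cells and with ChREBPβ at 2 mM, and 48.4% lower in the interaction.

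Both remaining comparisons crossed virus and glucose. ChREBPβ at 11 mM against GFP at 2 mM called 20 of 31 members, against 50.5% of all genes. Here 19 members rose, where 23.7% of all genes did, and Impdh1 fell, by 0.32 on the log2 scale, where 26.8% of all genes fell. Adsl, an enzyme of purine synthesis, rose by log2 0.29 in this comparison, and its call was lost without GFP 2 mM a (0.24) and without ChREBPβ 11 mM b (0.26). ChREBPβ at 2 mM against GFP at 11 mM called 6 of 31, against 27% of all genes. Psph was higher with ChREBPβ at 2 mM by log2 2.83, Cad by 0.46 and Psat1 by 0.29, 3 members where 12.2% of all genes were higher. Impdh1 was lower by 0.41, Dhodh by 0.31 and Prps1 by 0.27, where 14.8% of all genes were lower. The call of Dhodh was lost without GFP 11 mM a (-0.26), ChREBPβ 2 mM b (-0.29) or ChREBPβ 2 mM c (-0.24), and that of Prps1 without GFP 11 mM c or ChREBPβ 2 mM c (-0.25 each). With library totals as the scale, Psat1 was at 0.22, under 1.2-fold. For the other 25 members the ChREBPβ cells in low glucose did not differ from the GFP cells in high glucose past the threshold, and the median difference was -0.04.

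**Figure D4:**
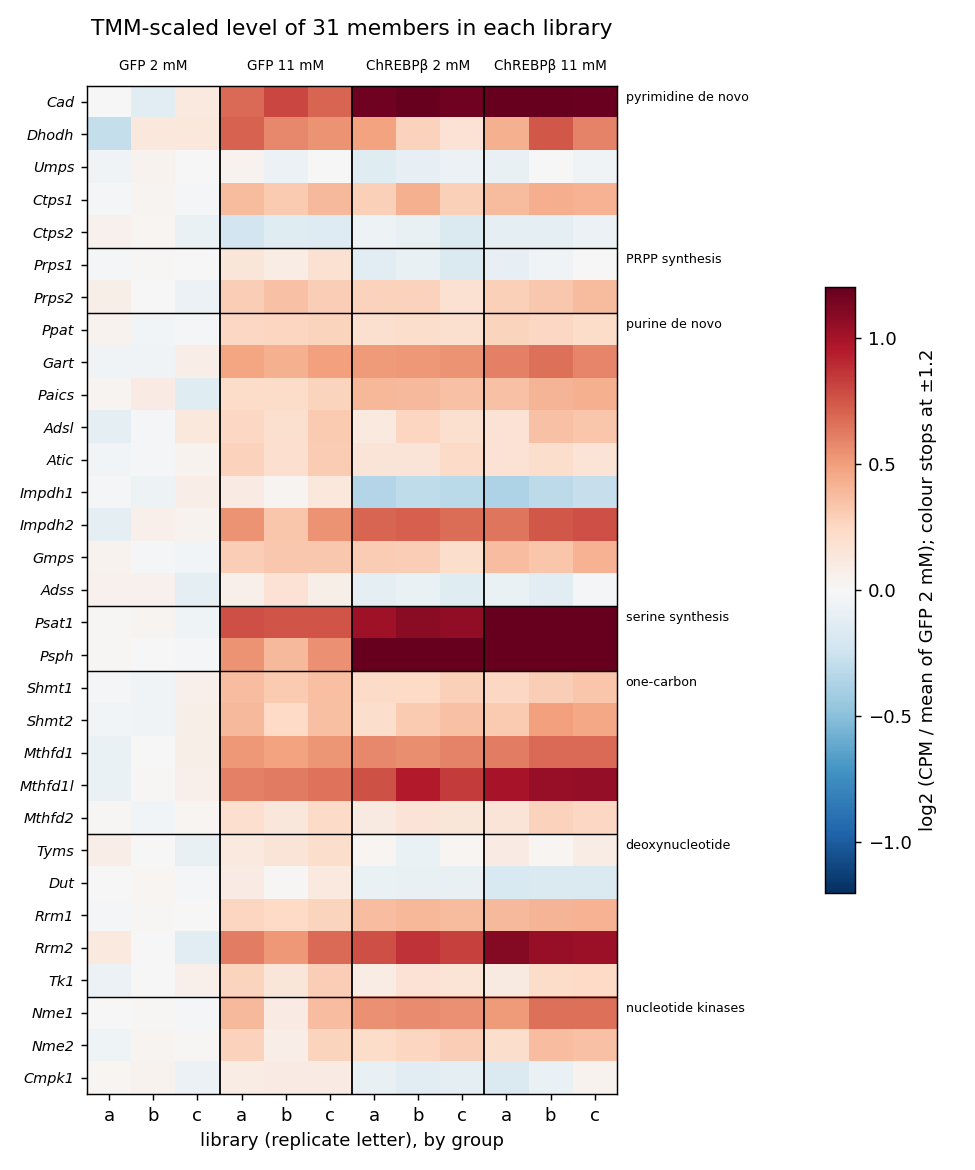
Level of each tested member (rows, grouped by role) in each of the 12 libraries (columns, by group) as log2 of its CPM over the mean of GFP 2 mM; red is higher, blue lower, and colours stop at 1.2 on either side. Rows such as Cad, Psat1, Psph, Mthfd1l and Rrm2 turn red from the first group to the other 3, while Impdh1 turns blue only in the 6 ChREBPβ libraries.

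Serine synthesis held the largest change. Psph was 51.5, 51.4 and 50.3 CPM in GFP 2 mM, 74.2, 66.7 and 74.7 in GFP 11 mM, 512, 499 and 527 in ChREBPβ 2 mM and 495, 522 and 549.6 in ChREBPβ 11 mM. All 6 ChREBPβ libraries lay far above all 6 GFP libraries, and those at 2 and 11 mM overlapped. The log2 fold change was 3.33 (SE 0.05, adjusted p = 3.6e-20) at 2 mM and 2.86 (SE 0.05, adjusted p = 1.9e-19) at 11 mM. Psat1 was 83.6, 84.8 and 80.0 CPM in GFP 2 mM and 142, 140.0 and 140.0 in GFP 11 mM. With ChREBPβ it was at 167, 176 and 173 CPM at 2 mM, and 198, 208 and 201 in ChREBPβ 11 mM. The 4 groups did not overlap and stood in this order, with log2 fold changes of 1.06 (SE 0.04, adjusted p = 1.73e-14) for ChREBPβ at 2 mM and 0.53 (SE 0.04, adjusted p = 8.86e-10) at 11 mM. Lack of overlap, here and below, was common over all genes. Between ChREBPβ and GFP it held for 63.3% of them at 2 mM and 56.1% at 11 mM. Between the glucose levels it held for 42.0% in GFP cells and 28.9% in ChREBPβ cells. The share of all genes with all 4 groups apart is not given here. Phgdh, which opens the route, had 2 counts over the 12 libraries and 0 in 10 of them, which allows up to 0.116 CPM in the smallest library and 0.0496 in the largest, counting error only. Whether so low a count reflects the RNA or the annotation and mapping behind the counts cannot be told from the table.

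**Figure D5:**
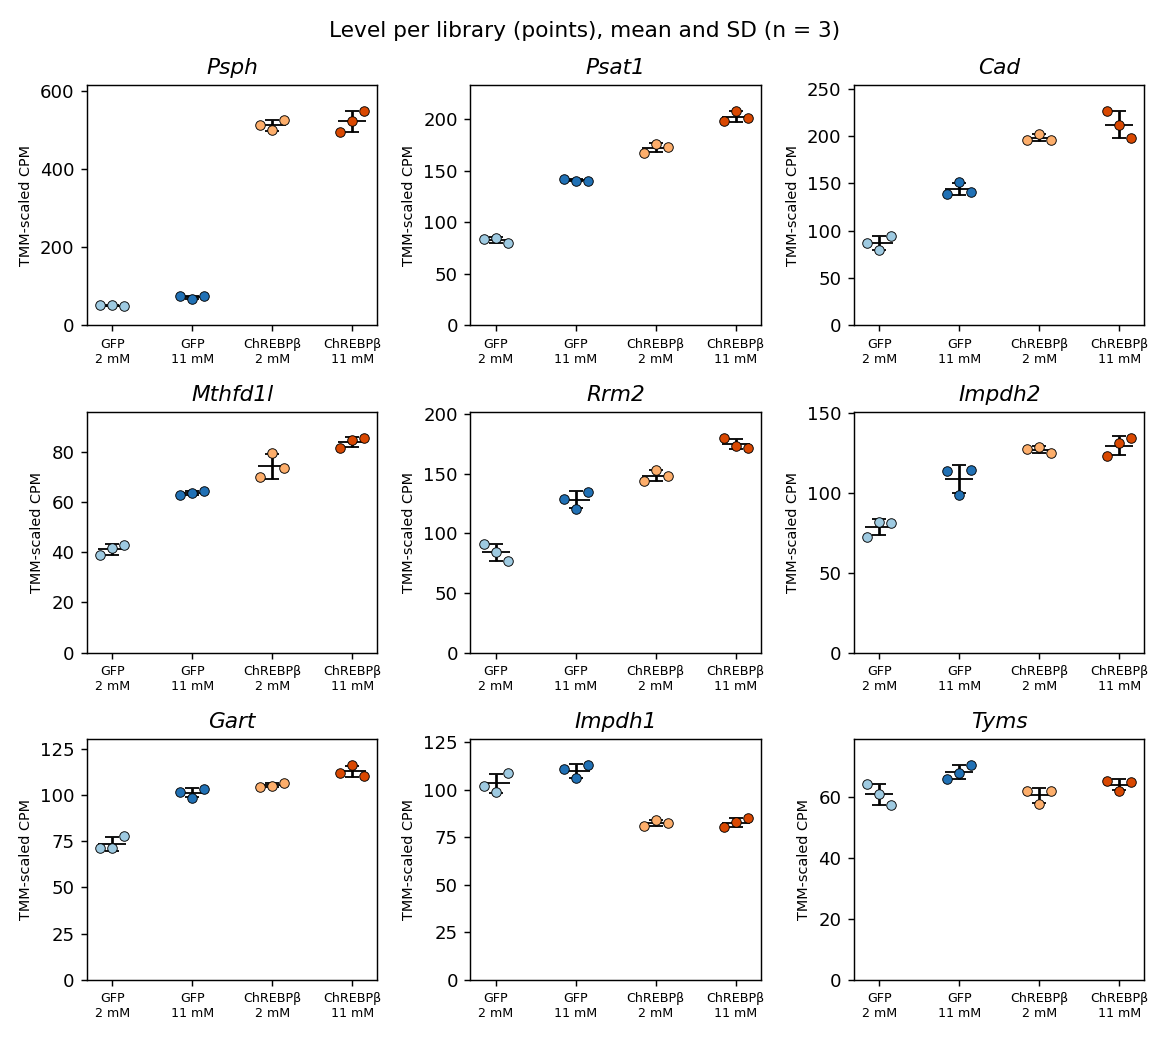
TMM-scaled CPM of 9 members (vertical axes, from 0) in the 4 groups; points are libraries, and bars give the mean and SD of 3. Psph steps up with ChREBPβ at either glucose level and rises less with glucose in GFP cells. Psat1, Cad, Mthfd1l and Rrm2 rise with glucose in GFP cells and with ChREBPβ. Impdh1 is lower with ChREBPβ, and Tyms is at 57.2 to 70.4 CPM throughout.

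Of the 5 one-carbon enzymes, Shmt2, Mthfd1 and Mthfd1l rose with ChREBPβ at 2 mM, where 21% of all genes did. At 11 mM Mthfd1l alone was called, and it was higher, where 14.3% of all genes rose. Mthfd1l, the mitochondrial enzyme that releases formate, was 38.8, 41.5 and 42.9 CPM in GFP 2 mM, 62.5, 63.5 and 64.5 in GFP 11 mM, 69.7, 79.5 and 73.4 in ChREBPβ 2 mM and 81.5, 84.6 and 85.4 in ChREBPβ 11 mM. The 4 groups did not overlap, and the log2 fold change with ChREBPβ was 0.85 (SE 0.05, adjusted p = 4.11e-11) at 2 mM and 0.40 (SE 0.05, adjusted p = 1.69e-06) at 11 mM. Mthfd1, the cytosolic enzyme that takes formate up into formyl folate, was 57.5, 61.0 and 63.9 CPM in GFP 2 mM and 87.3, 85.1 and 87.5 in GFP 11 mM. With ChREBPβ it was at 90.7, 89.3 and 91.7 CPM at 2 mM and at 93.3, 97.5 and 97.3 at 11 mM, so that only the GFP 2 mM libraries lay well below the rest. Its log2 fold change with ChREBPβ was 0.57 (SE 0.05) at 2 mM and 0.15 (SE 0.04) at 11 mM, below 1.2-fold. Shmt2, the mitochondrial serine hydroxymethyltransferase, rose from a mean of 116 ± 5.2 (SD, n = 3) to 142 ± 7.3 CPM with ChREBPβ at 2 mM and to 145 ± 8.1 with glucose alone, and its ChREBPβ effect of log2 0.29 was 0.19, below 1.2-fold, when counts were scaled to library totals alone. The cytosolic form, Shmt1, was 183, 181 and 195 CPM in GFP 2 mM and 241, 232 and 239 in GFP 11 mM, and at 218 to 235 in the 6 ChREBPβ libraries. Glucose raised it by log2 0.35 in GFP cells, while its ChREBPβ effect at 2 mM, 0.25, stayed just under 1.2-fold and at 11 mM was -0.06. Mthfd2, the mitochondrial dehydrogenase upstream of Mthfd1l, was not called, with ChREBPβ effects of 0.14 and 0.03 and a glucose effect in GFP cells of 0.19. Shmt2 overlaps Ndufa4l2 by 50 bases in the annotation, an entry at 1.19 CPM with ChREBPβ effects of -0.89 and -0.16.

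The pyrimidine route was uneven from step to step. Cad was 87.1, 79.9 and 94.3 CPM in GFP 2 mM, 139, 151 and 141 in GFP 11 mM, 196, 203 and 196 in ChREBPβ 2 mM and 227, 211 and 198 in ChREBPβ 11 mM. Both GFP groups lay apart from each other and below all 6 ChREBPβ libraries, while the ChREBPβ groups at 2 and 11 mM overlapped. Its log2 fold change with ChREBPβ was 1.19 (SE 0.06, adjusted p = 8.64e-13) at 2 mM and 0.56 (SE 0.06, adjusted p = 7.19e-08) at 11 mM. Dhodh, the mitochondrial dehydrogenase that follows, was low: the GFP 2 mM libraries read 5.73, 7.64 and 7.66 CPM and the ChREBPβ 2 mM libraries 9.78, 8.47 and 7.92. These groups did not overlap, but its call at log2 0.29 (SE 0.12, adjusted p = 0.0418) was lost without GFP 2 mM a (0.17), ChREBPβ 2 mM a (0.22) or ChREBPβ 2 mM b (0.31). Glucose in GFP cells raised Dhodh to 11.5, 10.5 and 10.2 CPM, by log2 0.60 (SE 0.12, adjusted p = 0.000459). Umps, which ends the route in UMP, lay between 197 and 225 CPM in all 12 libraries and was called in none of the comparisons. Ctps1, which turns UTP into CTP, was 109, 114 and 110.1 CPM in GFP 2 mM and at 135 to 150.4 in the other 9 libraries, above the first group without overlap. Its log2 fold change was 0.34 with ChREBPβ at 2 mM, 0.36 with glucose in GFP cells and 0.05 with ChREBPβ at 11 mM. Ctps2, the other CTP synthase, had -0.11, -0.17 and 0.08 in these comparisons and was not called. With counts scaled to library totals alone, the ChREBPβ calls at 2 mM of Dhodh (0.19) and Ctps1 (0.24) fell below 1.2-fold. Ctps1 overlaps Scmh1, at 36.5 CPM, and Slfnl1, at 1.67 CPM, in the annotation. Their ChREBPβ effects at 2 and 11 mM were -0.23 and -0.14 for Scmh1 and -0.33 and -0.71 for Slfnl1. Whether reads were counted by strand is not given in the sources used here.

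PRPP synthases, which feed both rings and salvage, were not called with ChREBPβ at either glucose level. Prps2 was 65.3, 61.8 and 58.9 CPM in GFP 2 mM, 76.3, 79.0 and 76.1 in GFP 11 mM and at 70.2 to 80.6 in the 6 ChREBPβ libraries. It rose with glucose in GFP cells by log2 0.32 (SE 0.05, adjusted p = 4.73e-05), and its ChREBPβ effect at 2 mM was 0.25. Prps1 was 152 to 155 CPM in GFP 2 mM, 164 to 175 in GFP 11 mM and at 137 to 155 with ChREBPβ, with ChREBPβ effects of -0.13 and -0.18.

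Among the purine enzymes tested, 4 rose and 1 fell of 9 with ChREBPβ at 2 mM, where 21% of all genes rose and 23.2% fell, and Impdh1, lower, was the only call at 11 mM. The inosine monophosphate dehydrogenases, which commit purines to GMP, went opposite ways. Impdh2 was 72.5, 81.8 and 80.9 CPM in GFP 2 mM, 114, 98.6 and 114 in GFP 11 mM, 127, 129 and 125 in ChREBPβ 2 mM and 123, 131 and 134 in ChREBPβ 11 mM. It rose by log2 0.69 (SE 0.06, adjusted p = 3.65e-09) with ChREBPβ at 2 mM, and at 11 mM its 0.25 lay just under 1.2-fold. Impdh1 was 102, 98.8 and 109 CPM in GFP 2 mM and 111, 106 and 113 in GFP 11 mM. It was 81.1, 83.9 and 82.7 CPM in ChREBPβ 2 mM and 80.2, 83.0 and 85.1 in ChREBPβ 11 mM. All 6 ChREBPβ libraries lay below all 6 GFP libraries, with log2 fold changes of -0.32 (SE 0.05, adjusted p = 5.3e-06) and -0.41 (SE 0.05, adjusted p = 2.59e-07) and none called with glucose. Whether the paralogs differed from each other in the effect of ChREBPβ was not tested beyond these separate values.

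Gart, which carries several steps of the purine ring, was 71.4, 71.1 and 77.5 CPM in GFP 2 mM and 102, 98.5 and 103 in GFP 11 mM. It was 104, 105 and 107 CPM in ChREBPβ 2 mM and 112, 116 and 110.4 in ChREBPβ 11 mM, so that the 4 groups did not overlap. Gart rose by log2 0.52 (SE 0.04, adjusted p = 4.53e-09) with ChREBPβ at 2 mM, and its 0.16 at 11 mM stayed under 1.2-fold. The gene overlaps Son by 25246 bases in the annotation. Son had a mean of 425 CPM, above every Gart library, and ChREBPβ effects of 0.09 and 0.12. Whether reads of Son counted toward Gart was not tested. Paics, which carries further steps, was 53.6, 56.0 and 47.2 CPM in GFP 2 mM and 68.9, 68.4 and 66.5 in ChREBPβ 2 mM, a rise of log2 0.38 (SE 0.05) without overlap, and at 11 mM its effect was 0.16. Its neighbour Ppat, the amidotransferase that commits PRPP to purines, was 161 to 170.3 CPM in GFP 2 mM and at 189 to 199 in the other 9 libraries, an effect of 0.20 with ChREBPβ at 2 mM and 0.26 with glucose, both under 1.2-fold. The spans of Ppat and Paics overlap, so reads of the shared stretch could count for either. Gmps, which makes GMP, rose from 105 ± 2.7 to 127 ± 4.7 CPM (SD, n = 3 each), or by log2 0.27 (SE 0.04), at the edge of the 1.2-fold threshold. The call of Gmps was lost without GFP 2 mM c, ChREBPβ 2 mM a or ChREBPβ 2 mM b (0.26 each), at equal depth (0.25) and with library totals (0.17). Adsl, Atic and Adss, the lyase, the bifunctional last enzyme of the ring and the enzyme toward AMP, had effects of 0.19, 0.18 and -0.11 at 2 mM and 0.04, -0.08 and -0.18 at 11 mM and were not called.

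Among the 5 deoxynucleotide genes, the subunits of ribonucleotide reductase rose. Rrm2, the small subunit, was 91.0, 84.0 and 76.7 CPM in GFP 2 mM, 129, 121 and 135 in GFP 11 mM, 144, 153 and 148 in ChREBPβ 2 mM and 180.0, 173 and 171 in ChREBPβ 11 mM. Its 4 groups did not overlap, and the log2 fold change was 0.82 (SE 0.06, adjusted p = 1.29e-10) with ChREBPβ at 2 mM and 0.45 (SE 0.05, adjusted p = 8.17e-07) at 11 mM. Rrm2 overlaps Cys1 in the annotation, an entry at 1.69 CPM. Rrm1, the large subunit, was 454, 465 and 461 CPM in GFP 2 mM, 551, 543 and 552 in GFP 11 mM and at 596 to 614 in the 6 ChREBPβ libraries. It rose with ChREBPβ at 2 mM by log2 0.38 (SE 0.03, adjusted p = 8.91e-09), while 0.15 at 11 mM and 0.26 with glucose in GFP cells were under 1.2-fold. Tyms, which makes thymidylate, Tk1, the thymidine kinase, and Dut, which removes dUTP, were called neither with ChREBPβ nor with glucose. Tyms had ChREBPβ effects of -0.01 and -0.09, Tk1 of 0.15 and -0.05 and Dut of -0.09 and -0.26. The Dut libraries lay at 191 to 193 CPM with ChREBPβ at 11 mM, below the 219.8 to 235 of GFP at 11 mM, and without GFP 11 mM b the difference (-0.29) was called.

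Nucleotide kinases completed the list. Nme1, a nucleoside diphosphate kinase, was 157, 158 and 155 CPM in GFP 2 mM, 205, 168 and 202 in GFP 11 mM, 229, 231 and 229 in ChREBPβ 2 mM and 223, 247 and 248 in ChREBPβ 11 mM. It rose by log2 0.55 (SE 0.06, adjusted p = 1.38e-07) with ChREBPβ at 2 mM, by 0.32 (SE 0.06) at 11 mM and by 0.29 (SE 0.06) with glucose in GFP cells. GFP 11 mM b was the low library of its group: without it the ChREBPβ effect at 11 mM was 0.23 and no longer called, and the glucose call was lost without GFP 11 mM a (0.24) or c (0.25). With library totals as the scale these effects were 0.24 and 0.26, both under 1.2-fold. Nme2, its neighbour, had 0.26, 0.11 and 0.21 and was not called. Nme1 and Nme2 are related genes, and whether reads were split between them was not tested. Cmpk1, which phosphorylates UMP and CMP, had ChREBPβ effects of -0.11 and -0.16 and was not called.

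The summed level of the 32 entries was 4048 to 4105 CPM with GFP at 2 mM, 4741 to 5002 with GFP at 11 mM, 5311 to 5417 with ChREBPβ at 2 mM and 5439 to 5715 with ChREBPβ at 11 mM, and the ranges did not overlap. Without Psph, left out after its values were seen, the sums in the same order were 3996 to 4053, 4674 to 4927, 4799 to 4918 and 4944 to 5166 CPM, and those of GFP 11 mM and ChREBPβ 2 mM overlapped.

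Genes that regulate these enzymes were listed by role, 10 in all, and each was tested. With ChREBPβ 7 rose at 2 mM, where 21% of all genes did, and 6 at 11 mM, where 14.3% did, and 3 rose with glucose in GFP cells, where 10.2% did, with no call in the other direction. Myc, a known activator of nucleotide synthesis, was 37.0, 38.9 and 42.1 CPM in GFP 2 mM, 87.7, 90.3 and 95.2 in GFP 11 mM, 114, 108 and 109 in ChREBPβ 2 mM and 122, 124 and 124 in ChREBPβ 11 mM. These 4 groups stood apart in this order, with a ChREBPβ effect of log2 1.49 (SE 0.05, adjusted p = 2.59e-15) at 2 mM, 0.44 at 11 mM and an interaction of -1.05 (adjusted p = 3.47e-09). Mycn, its relative, was at 1.76 to 2.43 CPM in the 6 GFP libraries and at 10.5 to 13.6 in the 6 ChREBPβ libraries, with effects of 2.52 and 2.44. Mxi1, which opposes Myc, had effects of 1.02 and 0.98. Atf4, the known activator of serine and one-carbon genes in amino acid shortage, was at 139 to 171 CPM in the GFP libraries and at 211 to 249 in the ChREBPβ libraries, with effects of 0.59 (SE 0.05, adjusted p = 3.91e-09) and 0.48 (SE 0.05, adjusted p = 8.07e-08). With glucose in GFP cells, its 0.21 stayed under 1.2-fold. E2f1, which drives S-phase genes, had effects of 0.18 and -0.10, which were not called, and an interaction of -0.28 (adjusted p = 0.0143). Whether any of these regulators takes part in the values of the members was not tested.

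Of 24 genes listed for salvage, the alternative to synthesis, and for catabolism, 21 were tested. With ChREBPβ at 2 mM 7 were higher and 6 lower, 61.9% in all against 44.1% of all genes, and at 11 mM 5 and 3, or 38.1%, near the 33.4% of all genes. With glucose in GFP cells 6 were higher and 3 lower, 42.9% against 20.2%. Uck2, which salvages uridine and cytidine, was 26.5, 28.8 and 25.4 CPM in GFP 2 mM, 39.0, 38.4 and 39.6 in GFP 11 mM and at 60.5 to 69.1 in the ChREBPβ libraries. It rose with ChREBPβ 2.30-fold at 2 mM and 1.69-fold at 11 mM. Ada, which deaminates adenosine, was at 2.98 to 4.37 CPM in the GFP libraries and at 12.1 to 15.8 in the ChREBPβ libraries, with effects of log2 1.80 and 1.78. Gda, the guanine deaminase, was under 1 CPM in every library, and its call at 2 mM (-1.39) was lost without GFP 2 mM a (-0.84), GFP 2 mM b (-1.42), ChREBPβ 2 mM b (-1.32) or ChREBPβ 2 mM c (-1.40). Hprt1, Cda and Xdh had 59, 0 and 3 counts over the 12 libraries and were not tested.

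The remaining folate, glycine and methyl cycle genes, 21 listed and 14 tested, gave 2 higher and 3 lower with ChREBPβ at 2 mM, 3 lower at 11 mM and 2 higher with glucose in GFP cells. These shares, 35.7%, 21.4% and 14.3%, were below the 44.1%, 33.4% and 20.2% of all genes. Ggh, which trims folate polyglutamates, was at 104 to 126 CPM in the GFP libraries and at 56.9 to 62.8 in the ChREBPβ libraries, effects of -0.98 and -0.86. Gcsh, a subunit of the glycine cleavage system, was at 185 to 204 CPM in the GFP libraries and at 98.0 to 112 in the ChREBPβ libraries, effects of -0.91 and -0.88. Ahcy, which clears S-adenosylhomocysteine, rose by log2 0.52 at 2 mM and had 0.16 at 11 mM.

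Markers of proliferation were called in these comparisons too. Of 14 genes listed, all tested, 8 rose with ChREBPβ at 2 mM, or 57.1% against 21% of all genes, and 2 at 11 mM, the same 14.3% as of all genes. With glucose in GFP cells 7 rose, where 10.2% of all genes did, and 7 had an interaction below 0, where 6.02% did. Mcm7, a subunit of the replicative helicase, had ChREBPβ effects of 0.56 and 0.27, the second lost without GFP 11 mM b (0.24) or ChREBPβ 11 mM c (0.25). Mcm5, of the same complex, had 0.50 and 0.18, and Top2a, the topoisomerase of dividing cells, 0.49 and 0.22, the latter called (0.27) without GFP 11 mM b. The interaction of Top2a, -0.28, was lost without GFP 2 mM b, ChREBPβ 2 mM a, ChREBPβ 2 mM b or ChREBPβ 11 mM b (-0.24 to -0.27). Their part in the members' values was not tested.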

How the data were processed

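Raw counts per gene were deposited by the authors in 1 table, with a column for each of the 12 libraries and, beside them, the authors' group means, which are a signal averaged over 3 columns and were not used. Per the study's methods, RNA was amplified (NuGEN Ovation) before paired-end sequencing. The build is Rnor 6.0 per the submitters' processing notes, and the aligner, counter and strand setting are not given in the sources used here. Amplified reads carry no molecular identifiers, so the floor for a count of 0, 3 counts, covers counting error only.

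In R 4.3.3, edgeR 4.0.16 kept genes by filterByExpr, scaled with TMM and fitted all 12 libraries at once with a mean for each of 4 groups. The quasi-likelihood test gave 7 comparisons, adjusted by Benjamini-Hochberg over all genes tested. A gene was called at an adjusted p under 0.05 and at least 1.2-fold, and by the adjusted p alone for the interaction. Log2 fold changes are edgeR's, and the SE is the size of the fold change over the root of its F statistic. DESeq2 1.42.0 and other scalings, filters, thresholds, a replicate block, thinning and leaving out each library were run as alternatives. The 1 entry without a gene name took about 0.005% of counts and was left out. Figures were drawn in Python 3.11.15. Replicates of a group differed by more than sampling noise (chi-square per degree of freedom 3.13 to 17.6), so none was taken as a copy of another and each was counted. This does not show that they came from separate cultures.

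All members were named. Beyond them, the text names Mlxipl, Myc, Atf4, E2f1 and the 3 genes of each other list that were called with ChREBPβ and moved most at 2 mM, and, outside this rule and chosen after their values were seen, Hprt1, Cda and Xdh as genes at or near 0, Thy1 as the fibroblast marker tested, and, from the annotation alone, Son, Scmh1, Slfnl1, Ndufa4l2 and Cys1 as genes that overlap members. Members and lists were chosen with earlier results of these data known. Promoter windows are RefSeq's, on GRCr8, a build other than that of the counts, matched by symbol or synonym for 29 of 33 members.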

Additional observations from a re-analysis of the deposited data

Results flagged for a closer look

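For 15 members the effect of ChREBPβ differed between the glucose levels by the test of that difference, the interaction in edgeR's quasi-likelihood fit, and for each it was smaller at 11 than at 2 mM. On the log2 scale the difference was -0.53 for Psat1 and -0.47 for Psph in serine synthesis. In the one-carbon steps it was -0.45 for Mthfd1l, -0.43 for Mthfd1 and -0.31 for Shmt1. Cad, at -0.63, and Ctps1, at -0.29, were the pyrimidine genes. PRPP and purine synthesis gave -0.44 for Impdh2, -0.37 for Gart, -0.26 for Atic, -0.23 for Prps2, -0.22 for Gmps and -0.21 for Ppat. Ribonucleotide reductase gave -0.37 for Rrm2 and -0.23 for Rrm1. Adjusted p ranged from 3.48e-06 for Psat1 to 0.041 for Prps2. Of all genes tested 8.07% passed this test. Groups of 3 libraries were too small for a test of outlying libraries.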

How the results depend on the processing

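The counts of members in this section stand without the share of all genes called under the same setting. They show how the members' calls moved with the setting, not how the members compare with all genes. The settings on groups entering the fit and on the minimum fold change were not run for the interaction, which is fitted on all groups and called by its adjusted p. With no minimum fold change, 27 members were called with ChREBPβ at 2 mM and 16 at 11 mM, 26 with glucose in GFP cells, 3 with glucose in ChREBPβ cells and 16 with ChREBPβ at 2 mM against GFP at 11 mM. With a minimum of 1.5-fold these were 6, 1 and 5, then 9 for ChREBPβ at 11 mM against GFP at 2 mM and 1 for ChREBPβ at 2 mM against GFP at 11 mM. With glucose in ChREBPβ cells 1 member was called with no filter (Dhodh) and 1 at equal depth (Rrm2). Leaving out each library gave 14 to 17 and 7 to 8 calls with ChREBPβ at 2 and 11 mM, 14 to 20 and 0 with glucose in GFP and ChREBPβ cells, 19 to 21 and 4 to 8 in the crossed comparisons and 13 to 19 for the interaction. The letters a to c did not pair the libraries: over 18 same-letter pairs across groups r was -0.114 to 0.0644, and 4 of 12 libraries correlated best with their own letter. With the letter as a replicate block the counts were 16, 7, 15, 0, 20 and 6, and 14 for the interaction, which lost Prps2 (adjusted p = 0.0547). Scaling by library totals moved the median of all genes by -0.10 with ChREBPβ at 2 mM and by -0.12 with ChREBPβ at 11 mM against GFP at 2 mM, lowered the share of all calls that were higher from 47.5 to 33.2% and from 46.9 to 33.4%, at 11 mM from 42.9 to 29.3% and for ChREBPβ at 2 mM against GFP at 11 mM from 45.2 to 32.98%, and gave 12, 8, 14, 0, 16, 7 and 14 called members. Some effects that were not called turned sign, and the cause was not tested. For ChREBPβ at 11 mM these were the members' median with library totals (-0.0339), Dhodh with RLE factors (0.000588), DESeq2 (0.00079) and equal depth (0.027), Ppat with RLE factors (0.00788) and DESeq2 (0.00794), and with library totals Ctps1 (-0.0339), Ctps2 (-0.00766), Prps2 (-0.0698), Adsl (-0.049), Gmps (-0.0266) and Mthfd2 (-0.0505). With glucose in GFP cells they were Gda under the block (0.022) and Gcsh with library totals (-0.0109), with glucose in ChREBPβ cells and library totals Ctps2 (-0.00662), Atic (-0.0149) and Impdh1 (-0.0142), and for the interaction Ada at equal depth (0.0341). Leaving out libraries spanned 0 for Tyms at 2 mM (-0.0502 to 0.0305), for Dhodh (-0.10 to 0.0587), Prps2 (-0.0107 to 0.0357) and Ppat (-0.0238 to 0.000842) at 11 mM, for Umps (-0.0301 to 0.0278), Gda (-0.42 to 0.53) and Gcsh (-0.0155 to 0.0428) with glucose in GFP cells, for Ctps2 (-0.0226 to 0.034), Atic (-0.0135 to 0.0302), Impdh1 (-0.0175 to 0.0249), Psph (-0.0115 to 0.0646) and Cmpk1 (-0.0126 to 0.095) with glucose in ChREBPβ cells, and for the interactions of Ada (-0.20 to 0.0874), Gcsh (-0.00939 to 0.0827) and Mycn (-0.235 to 0.00171). At this depth Phgdh, Hprt1, Cda and Xdh had too few counts to be tested.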

Other observations

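Hprt1, which salvages hypoxanthine and guanine, had 0 to 11 counts in each library, 59 over all 12, and Phgdh, whose product feeds Psat1 and Psph, had 2 counts in all. Psat1, the step after Phgdh, read 80.0 to 208 CPM in the same libraries. Whether the near-0 counts reflect the RNA or the annotation and mapping behind the counts cannot be told from the table.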
